A study of Rattus norvegicus with 12 samples.

Results

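miR-142, miR-150, miR-223 and miR-342 are microRNAs (miRNAs, short RNAs that repress messenger RNAs) whose expression is concentrated in white blood cells. They were followed here in small RNA libraries of rat gastric mucosa as a readout of the leukocytes in that tissue. The members are the rows of the deposited count tables that carry either arm of these 4 hairpins: 8 of 649 miRNAs, 2 for each hairpin. The 3 groups of 4 libraries were as follows. The XLHZ group had MNNG (N-methyl-N'-nitro-N-nitrosoguanidine, an alkylating mutagen) for 24 weeks and the Xianglianhuazhuo formula, a herbal preparation, for 60 days. The model group had MNNG for 24 weeks without the formula, and the normal group was untreated. Both MNNG groups had the full gastritis protocol, whose parts cannot be told apart here. The protocol that produced chronic atrophic gastritis gave MNNG at 180 µg/ml in the drinking water, sodium salicylate (2%) by gavage, and 2 days of food alternating with 1 day of fasting. Strain, sex and age are not known here. The labels do not tie each library to its own rat, and the p-values therefore reflect how far libraries of 1 group lie apart, which may be technical. Depth ranged between 9094962 and 11556058 miRNA counts per library. Epithelial miRNAs were set beside the tissue label, though they cannot single out gastric mucosa. The arms of miR-200a, miR-200b, miR-200c, miR-141 and miR-429 summed to between 54147 and 85725 CPM (counts per 1000000 of the library, scaled between libraries by TMM factors) in each library, against 2893 to 6883 CPM for the 8 leukocyte rows. Smooth muscle miR-143 and miR-145 summed to between 97611 and 403505 CPM, more than the epithelial sum in each library. How much muscle the samples held is not known here.

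A miRNA hairpin is cut into a 5p and a 3p arm, of which 1 is usually kept and loaded into Argonaute, where bases 2 to 8, the seed, select the targets. miR-142 is made in nearly all blood lineages and is commonly used as a pan-leukocyte marker. miR-223 is a miRNA of neutrophils, monocytes and macrophages. miR-150 is abundant in mature B, T and natural killer lymphocytes and restrains the transcription factor Myb, and miR-342 is also enriched in lymphocytes. In bulk tissue such as this, fewer cells of a type and less RNA per cell cannot be told apart.

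RefSeq mature sequences were found for 6 of the 8 rows, and for neither arm of miR-150, although miR-150-5p had 119727 counts over the 12 libraries. Of those 6, the 4 with the most counts are shown, with the seed in capitals.
miR-142-3p: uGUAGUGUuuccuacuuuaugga
miR-142-5p: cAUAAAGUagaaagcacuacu
miR-223-3p: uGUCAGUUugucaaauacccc
miR-342-3p: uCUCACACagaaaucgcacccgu
No 2 of these seeds are the same, and no other mature rat miRNA in the RefSeq table has any of them. Neither arm of miR-150 was found there, so a miRNA that shares a seed could also be absent from it. In the GRCr8 build of RefSeq the arms of miR-142 lie on the plus strand at chr10:73055119-73055139 (5p) and chr10:73055155-73055177 (3p), within the annotated span of Tspoap1. miR-223-3p lies at chrX:65151450-65151470, within an annotated long noncoding RNA. miR-342-3p lies at chr6:133329715-133329737 on the plus strand, within the spans of Evl and a long noncoding RNA; Evl is a gene for a regulator of the actin cytoskeleton. These positions come from the reference and not from the deposited files, which name no build. The 4 sequences differ in base composition, with G and C making up 34.8% of miR-142-3p, 33.3% of miR-142-5p, 42.9% of miR-223-3p and 52.2% of miR-342-3p. Ligation and amplification of small RNAs depend on sequence, so levels of different miRNAs are compared here only in rough order.

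The leukocyte miRNAs were a small part of every library. The 8 rows together took 0.545 ± 0.147% of counts in XLHZ, 0.389 ± 0.101% in model and 0.470 ± 0.0441% in normal libraries (mean ± SD, n = 4 libraries per group here and throughout). miR-142 made up most of that: 67.7 ± 7.13% of the members' counts in XLHZ, 65.1 ± 4.74% in model and 60.3 ± 5.58% in normal libraries. miR-150 followed with 18.7 ± 4.78%, 20.3 ± 4.13% and 22.7 ± 4.70% in XLHZ, model and normal libraries. miR-223 held 8.27 ± 1.82%, 8.42 ± 1.04% and 9.98 ± 1.13% in the same order of groups, and miR-342 held 5.39 ± 1.49%, 6.21 ± 1.63% and 7.03 ± 2.08%. The order of the 4 means, miR-142, miR-150, miR-223 and miR-342, was the same in each group. Ranked by mean level among all miRNAs of the joined tables, miR-142-3p was 51st in XLHZ, 59th in model and 56th in normal libraries, and miR-150-5p was 79th, 82nd and 78th.

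Each hairpin had a dominant arm, the 3p arm for miR-142, miR-223 and miR-342 and the 5p arm for miR-150. The imbalance was smallest for miR-142, whose 5p arm held 13.04% of the hairpin's counts over the 12 libraries, with 10.9% to 15.4% in single libraries. miR-223-5p held 0.5002% (0.215% to 0.853% in single libraries) and miR-342-5p 0.119% (0% to 0.228%). miR-150-3p was seen once, as a single count in XLHZ library 3, and was at 0 in 11 libraries, where a count of 0 allows up to 0.260 to 0.330 CPM depending on depth. That row stands in 1 of the 2 tables only. miR-223-5p had 21, 17, 32 and 22 counts in XLHZ libraries 1 to 4, 26, 12, 30 and 8 in model libraries and 31, 20, 20 and 23 in normal libraries. The 3 groups overlapped, and model library 4 held the fewest. miR-342-5p had 0 to 7 counts in XLHZ, 1 to 5 in model and 1 to 6 in normal libraries, too few for a test. The count filter left 6 of the 8 rows, all but miR-150-3p and miR-342-5p, in each comparison. The floors given for a count of 0 cover counting error only.

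miR-142-3p, the pan-leukocyte arm (rno-miR-142-3p in the tables), had 1957, 2659, 3603 and 4363 CPM in XLHZ libraries 1 to 4, 2236, 1491, 3520 and 2243 CPM in model libraries and 2949, 2241, 2184 and 2186 CPM in normal libraries. The groups overlapped: 2 XLHZ libraries lay above every model and normal library and 1 below every normal library, while the model group held 1 library above and 1 below all normal libraries. The raw counts behind these levels were 20239 to 51484 in XLHZ, 13647 to 32907 in model and 24557 to 29529 in normal libraries. miR-142-5p, which has its own seed, measured 239, 426, 511 and 588 CPM in XLHZ, 369, 217, 470 and 407 CPM in model and 473, 339, 368 and 327 CPM in normal libraries, and it was lowest in model library 2, as was miR-142-3p.

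miR-150-5p, the lymphocyte miRNA, had 943, 896, 752 and 1166 CPM in XLHZ libraries 1 to 4, 948, 698, 869 and 736 CPM in model libraries and 879, 841, 1195 and 1215 CPM in normal libraries. Model libraries 2 and 4 lay below every normal library, and the other 2 within the normal range. miR-342-3p measured 276, 243, 203 and 369 CPM in XLHZ, 245, 247, 320 and 185 CPM in model and 232, 282, 316 and 444 CPM in normal libraries. Its groups overlapped throughout, with normal library 4 the highest of the 12 and model library 4 the lowest. The 2 lymphocyte miRNAs thus had their highest level in the same library, normal library 4.

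miR-223-3p, the myeloid miRNA, had 378, 379, 502 and 395 CPM in XLHZ libraries 1 to 4, 302, 238, 565 and 313 CPM in model libraries and 540, 464, 393 and 420 CPM in normal libraries. In the model group, 3 of 4 libraries lay below every normal library, and the other, model library 3, was the highest of all 12. The model mean, 355 ± 144 CPM, therefore had a coefficient of variation of 40.6%, against 14.5% in XLHZ (413 ± 59.8 CPM) and 14.2% in normal libraries (454 ± 64.4 CPM).

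**Figure D1:**
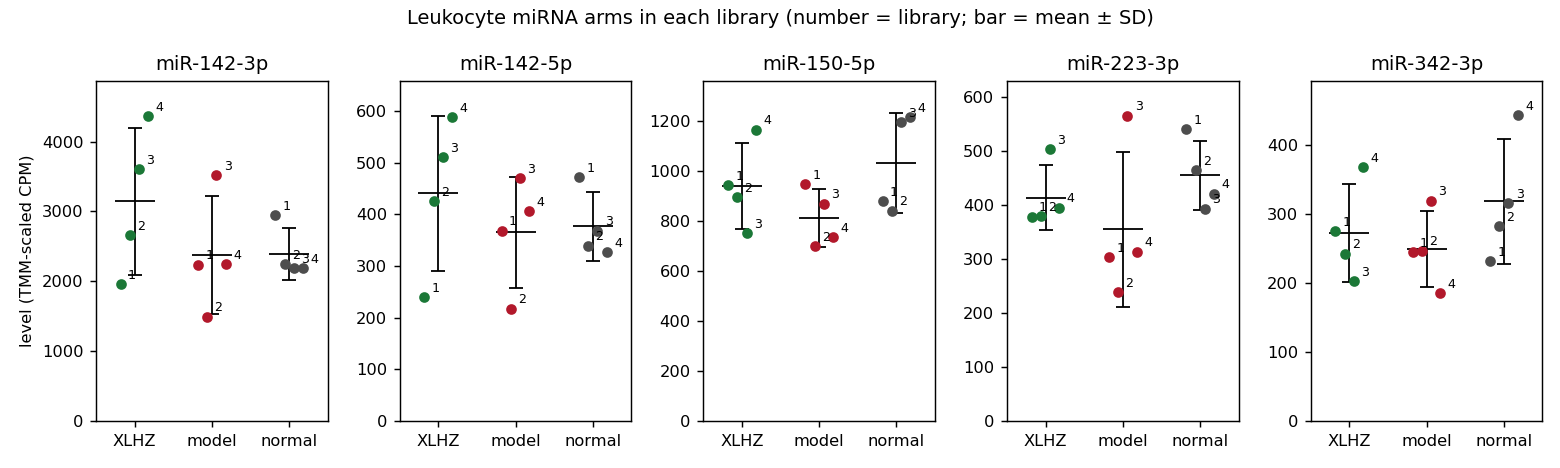
Level in TMM-scaled CPM (y axis, from 0, own scale per panel) of the 5 abundant leukocyte arms in XLHZ, model and normal libraries, 1 point per library with its number, and the mean ± SD of each group. The groups overlap for each arm, and model library 2 holds the lowest miR-142-3p, miR-142-5p, miR-150-5p and miR-223-3p of the 12 libraries.

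The first comparison asked whether leukocyte miRNAs differed between MNNG-exposed, atrophic mucosa and normal mucosa. miR-142-3p averaged 2373 ± 843 CPM in model and 2390 ± 373 CPM in normal libraries, a log2 fold change of -0.017 (SE 0.24), with a 95% interval from 0.676- to 1.44-fold. miR-142-5p averaged 366 ± 107 CPM in model and 377 ± 66.1 CPM in normal libraries (log2 fold change -0.051). The lymphocyte miRNA miR-150-5p averaged 813 ± 116 CPM in model and 1033 ± 200 CPM in normal libraries, with a log2 fold change of -0.35 (SE 0.19) and an interval from 0.586- to 1.05-fold. For miR-342-3p, at 249 ± 55.1 CPM in model and 319 ± 90.4 CPM in normal libraries, the log2 fold change was -0.36 (interval 0.535- to 1.14-fold), and -0.14 without normal library 4. The myeloid miR-223-3p had a log2 fold change of -0.36 (SE 0.26, interval 0.516- to 1.17-fold).

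No leukocyte miRNA passed in that comparison. With edgeR's quasi-likelihood test and Benjamini-Hochberg adjustment over the 403 miRNAs tested, the adjusted p was 0.642 for miR-150-5p, 0.662 for miR-342-3p, 0.670 for miR-223-3p, 0.937 for miR-223-5p, 0.962 for miR-142-5p and 0.984 for miR-142-3p. The count of 0 among the 6 tested rows stands beside 0.248% of all miRNAs called in either direction (0.248% higher, 0.00% lower), and 0 of the 6 had an unadjusted p under 0.05, against 7.20% of all miRNAs. DESeq2 also called 0 of the 6. All 6 tested rows had overlapping groups, where 1.49% of the miRNAs tested had model libraries entirely above and 1.99% entirely below the normal ones. The intervals set what these libraries can show: for miR-142-3p and miR-223-3p the upper bounds were 1.44-fold and 1.17-fold, so a rise of 2-fold in the model group lies outside both intervals.

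The second comparison asked whether they differed between exposed mucosa with and without the formula. miR-142-3p averaged 3146 ± 1055 CPM in XLHZ and 2373 ± 843 CPM in model libraries, with a log2 fold change of 0.39 (SE 0.31, interval 0.814- to 2.12-fold). miR-142-5p averaged 441 ± 150 CPM in XLHZ and 366 ± 107 CPM in the model group (log2 fold change 0.26). For miR-150-5p the level was 939 ± 172 CPM in XLHZ against 813 ± 116 CPM in the model group (log2 fold change 0.19, SE 0.18, interval 0.864- to 1.51-fold). miR-342-3p, with 272 ± 70.8 CPM in XLHZ, had a log2 fold change of 0.11, and miR-223-3p one of 0.21. No row passed: the adjusted p over the 402 miRNAs tested was 0.802 for miR-142-3p, 0.819 for miR-150-5p, 0.825 for miR-142-5p and miR-223-3p, 0.926 for miR-342-3p and 0.955 for miR-223-5p (edgeR). The count of 0 of 6 stands beside 0.249% of all miRNAs called, 0 of the 6 had an unadjusted p under 0.05 against 4.23% of all, and DESeq2 called 0. All 6 tested rows overlapped between the groups, where 0.998% of the miRNAs tested lay entirely above and 0.249% entirely below.

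The third comparison set formula-treated exposed mucosa against normal mucosa. miR-142-3p had a log2 fold change of 0.37 (SE 0.23, interval 0.895- to 1.87-fold) and miR-142-5p one of 0.20, while those of miR-150-5p, miR-223-3p and miR-342-3p were -0.17 (SE 0.18), -0.17 (SE 0.14) and -0.25 (SE 0.25). Without normal library 4 that of miR-342-3p was -0.040. The narrowest interval of the 3 comparisons was that of miR-223-3p here, from 0.717- to 1.11-fold. No row passed: the adjusted p over 401 miRNAs was 0.640 for miR-142-3p, 0.730 for miR-223-3p and miR-342-3p, 0.746 for miR-150-5p, 0.809 for miR-142-5p and 0.978 for miR-223-5p (edgeR). The count of 0 of 6 stands beside 1.50% of all miRNAs called, 0.998% higher and 0.499% lower. At an unadjusted p under 0.05 there were 0 of the 6 against 8.73% of all, and DESeq2 called 0. All 6 tested rows overlapped between the groups, where 3.99% of the miRNAs tested lay entirely above and 2.24% entirely below. The 6 tested rows come from 4 hairpins and are not 6 separate observations. They had log2 fold changes below 0 in model against normal and above 0 in XLHZ against model, but these 2 comparisons share the 4 model libraries. Of all miRNAs tested, 50.9% lay below 0 and 49.1% above 0 in the first, and 51.0% above 0 and 49.0% below 0 in the second. In XLHZ against normal 2 of the 6 lay above 0 and 4 below, beside 49.1% and 50.9% of all miRNAs. For the smooth muscle list the median log2 fold change was 0.62 in model against normal and -0.67 in XLHZ against model (4 of 4 arms each way), the striated muscle list 0.90 and -0.90, and the nerve list 0.70 and -0.80. The part of these shifts in the leukocyte signs was not tested. None of the 6 leukocyte rows passed in any comparison, and the sign of miR-142-3p in model against normal turned to 0.0096 with RLE factors and 0.038 with upper-quartile factors.

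**Figure D2:**
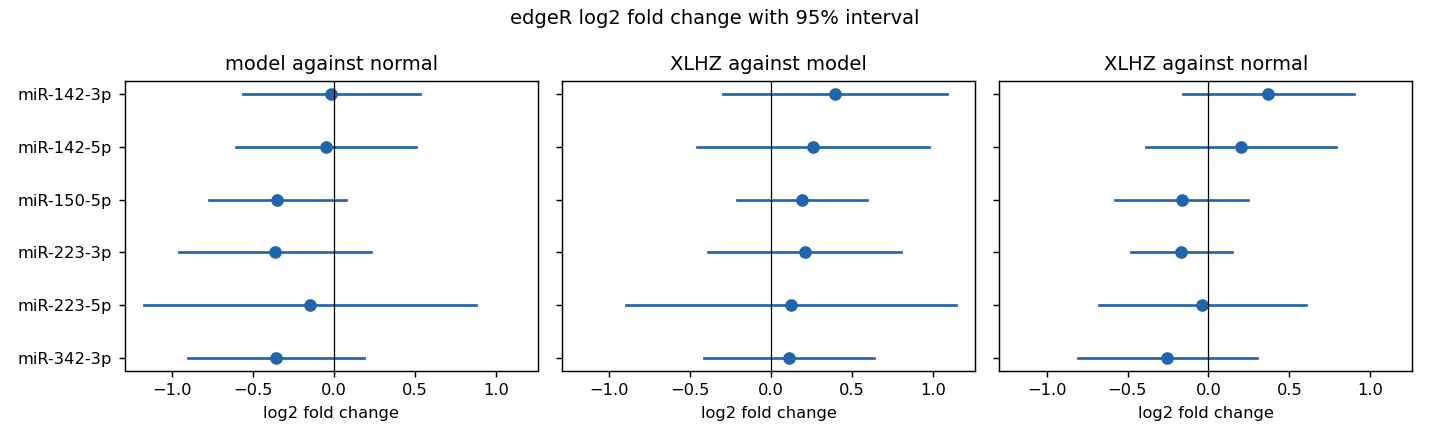
edgeR log2 fold change (x axis) of the 6 tested leukocyte arms (rows), with the 95% interval as a line, in model against normal, XLHZ against model and XLHZ against normal. Each interval includes 0, and the widest are those of miR-223-5p, which had 8 to 32 counts per library.

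Next, 2 ratios within a library, which do not depend on the scaling between libraries, were compared. The ratio of miR-142-3p to miR-142-5p was 8.18, 6.24, 7.05 and 7.42 in XLHZ libraries 1 to 4, 6.07, 6.87, 7.49 and 5.52 in model libraries and 6.24, 6.60, 5.93 and 6.68 in normal libraries. The ratio was highest in XLHZ library 1 and lowest in model library 4, XLHZ library 2 lay within the normal range, and the groups overlapped. The mean log2 ratio was 2.85 ± 0.163 in XLHZ, 2.69 ± 0.195 in model and 2.67 ± 0.0793 in normal libraries. The differences were 0.019 for model minus normal, 0.16 for XLHZ minus model and 0.18 for XLHZ minus normal, with adjusted p of 0.829, 0.386 and 0.343 (exact two-sided permutation test, adjusted over the 3 comparisons). With 4 against 4 libraries this test cannot go below an unadjusted p of 0.0286. The other 3 hairpins had a minor arm too rare for such a ratio.

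The second ratio set myeloid miR-223-3p against lymphoid miR-150-5p. It was 0.401, 0.422, 0.668 and 0.339 in XLHZ libraries 1 to 4, 0.319, 0.341, 0.650 and 0.426 in model libraries and 0.615, 0.551, 0.329 and 0.346 in normal libraries. Each group thus held at least 1 library of about 0.3 and only 1 above 0.6. The spread between libraries of a group exceeded the differences between group means. The mean log2 ratio was -1.18 ± 0.420 in XLHZ, -1.26 ± 0.463 in model and -1.18 ± 0.460 in normal libraries. None of the 3 differences passed, with unadjusted p of 0.857 for model minus normal, 0.743 for XLHZ minus model and 1 for XLHZ minus normal (exact two-sided permutation test, adjusted p of 1 for each).

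**Figure D3:**
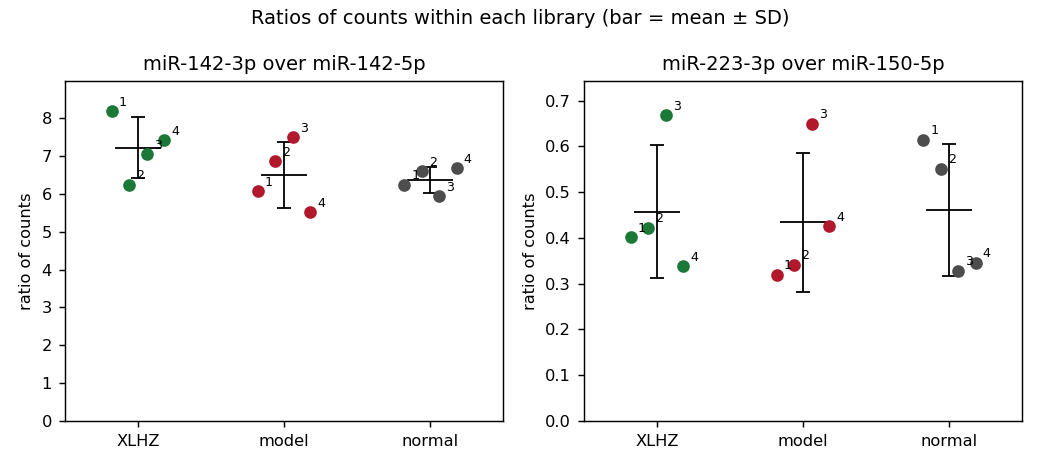
Ratio of counts within each library (y axis, from 0) of miR-142-3p to miR-142-5p and of miR-223-3p to miR-150-5p in XLHZ, model and normal libraries, with the mean ± SD of each group. The miR-223-3p to miR-150-5p ratio is above 0.6 in XLHZ library 3, model library 3 and normal library 1.

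Levels of the abundant arms differed from library to library. Over the 12 libraries the highest level of miR-142-3p was 2.93 times the lowest, with a coefficient of variation of 31.2%, against medians of 2.18 times and 21.7% over the 282 miRNAs with a mean of at least 10 CPM. The same pair of values was 2.71 times and 27.4% for miR-142-5p, 2.40 times and 26.1% for miR-342-3p, 2.37 times and 24.0% for miR-223-3p and 1.74 times and 19.1% for miR-150-5p. The lymphocyte miRNA miR-150-5p was therefore the steadiest of the 5 abundant arms and miR-142-3p the most variable.

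Of the 6 pairs of dominant arms, 2 passed the test of Pearson's r over the libraries. miR-142-3p went with myeloid miR-223-3p, with a Pearson r of 0.67 (adjusted p = 0.0355) and a Spearman rho of 0.63 (adjusted p = 0.0791) over the 12 libraries. miR-150-5p went with miR-342-3p, the other lymphocyte miRNA, with an r of 0.81 (adjusted p = 0.00455) and a rho of 0.62 (adjusted p = 0.0791). The permutation tests used 100000 resamples and were adjusted over 7 pairs, and the rank correlation of neither pair passed. Among 277 other miRNAs with a mean of at least 10 CPM, 8 had a higher r with miR-142-3p than miR-223-3p had, and 4 a higher r with miR-223-3p than miR-142-3p had. For miR-150-5p 8 exceeded miR-342-3p, and for miR-342-3p 9 exceeded miR-150-5p. Without the 2 libraries farthest from the median of the first miRNA, r was 0.82 for miR-142-3p and miR-223-3p (unadjusted permutation p = 0.00410) and 0.73 for miR-150-5p and miR-342-3p (p = 0.0173), and the rho was 0.64 and 0.43.

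The 4 remaining pairs of dominant arms, each crossing these pairs, had an r of 0.11 to 0.21 and adjusted p of 0.626 to 0.723 in the same permutation tests. The lowest was that of miR-142-3p with miR-342-3p and the highest that of miR-223-3p with miR-342-3p. On library totals in place of TMM factors, these 4 pairs had a higher r, of 0.25 to 0.41. On those totals r was 0.72 for miR-142-3p with miR-223-3p and 0.85 for miR-150-5p with miR-342-3p. Whether the correlations within and across the 2 pairs differ from each other was not tested. As deviations from the group means, with miRNA values permuted within groups, r was 0.77 for miR-142-3p with miR-223-3p and 0.78 for miR-150-5p with miR-342-3p (adjusted p = 0.0353 and 0.0352, exact permutation test), and -0.10 to 0.19 for the 4 crossing pairs. The 2 arms of the miR-142 hairpin, which come from 1 precursor, had an r of 0.93 and a rho of 0.96 (adjusted permutation p = 7e-05 and 0.00014), where the unadjusted p of r is the smallest such resampling can give.

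**Figure D4:**
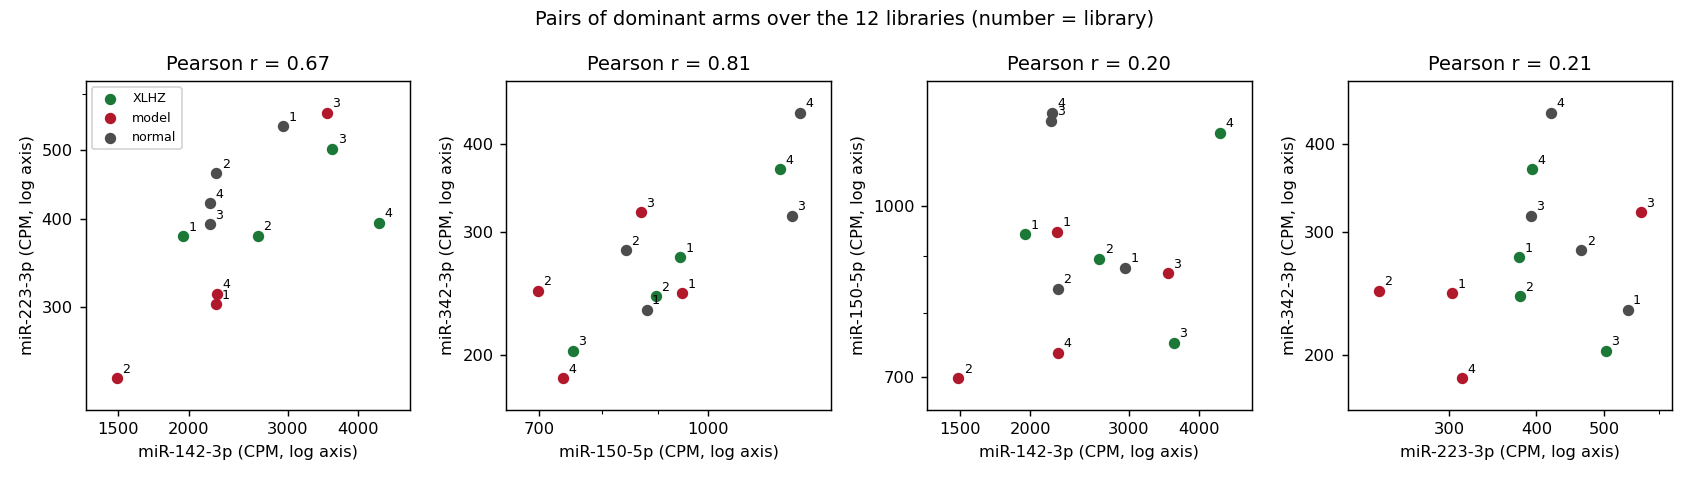
Levels of 4 pairs of dominant arms in CPM (both axes logarithmic), 1 point per library, coloured by group and numbered. miR-142-3p with miR-223-3p (r = 0.67) and miR-150-5p with miR-342-3p (r = 0.81) run along a diagonal, and the 2 crossing pairs shown have an r of 0.20 and 0.21.

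Outside the 8 rows, the miRNAs most alike in pattern were taken as the 3 with the highest Pearson r over the 12 libraries among 277 with a mean of at least 10 CPM, as a description without a test. For miR-142-3p they were miR-17-5p, miR-350 and miR-872-5p, with an r of 0.87, 0.77 and 0.75. For miR-223-3p they were miR-181a-1-3p (0.83), the mesenchymal miR-199a-3p (0.73) and miR-203a-3p of squamous epithelium (0.68). For miR-150-5p they were miR-93-3p (0.91), miR-151-3p (0.86) and miR-532-3p (0.84). For miR-342-3p they were the mesenchymal miR-214-3p (0.94), miR-103-3p (0.92) and miR-181a-5p (0.88). No miRNA stood in more than 1 of these 4 lists. The arms of mesenchymal miR-199a, miR-214 and miR-140, summed, had an r of 0.71 with miR-223-3p and 0.61 with miR-142-3p. With miR-342-3p the r of that sum was 0.47, and with miR-150-5p 0.29. All 12 libraries enter each value, so shared depth, scaling and tissue makeup enter too.

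Model libraries 2 and 3 set much of the spread in the exposed group, and other markers moved there as well. Model library 2 had the lowest miR-142-3p, miR-142-5p, miR-150-5p and miR-223-3p of the 12, and in the same library the arms of smooth muscle miR-143 and miR-145 summed to 403505 CPM, the highest, and erythroid miR-144, miR-451 and miR-486 to 33.8 CPM, the lowest. The epithelial list, at 54147 CPM, and endothelial miR-126a and miR-126b, at 18191 CPM, were also lowest there. Model library 3 had the highest miR-223-3p, and there miR-21-5p, which inflammation and injury induce in many cells, stood at 92544 CPM against 33537 to 37327 CPM in the other model libraries. In that library miR-146a-5p, a feedback inhibitor of NF-kB signalling, stood at 6278 CPM against 1254 to 1381 CPM, and miR-375-3p, which endocrine and gland cells express, at 5229 CPM against 11252 to 13077 CPM. The muscle sum was also high there, at 356150 CPM. miR-155-5p, another immune miRNA, stood at 235 CPM in model library 3, the lowest of the 12, against 316 to 351 CPM in the other model libraries. XLHZ library 4, with the highest miR-142-3p, had 3927 CPM of miR-146a-5p, against 1409 to 1946 CPM in the other XLHZ libraries. The part of muscle, epithelium or blood content in the leukocyte values was not tested by library. Without model libraries 2 and 3 together, no leukocyte row passed in either comparison that uses them, and the log2 fold change of miR-223-3p was -0.53 in model against normal and 0.38 in XLHZ against model (adjusted p = 0.516 and 0.984, edgeR). Without model library 3 alone, the log2 fold change of miR-223-3p in model against normal was -0.62 (adjusted p = 0.428) and that of miR-142-3p -0.22 (adjusted p = 0.743).

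Whole blood in the tissue would carry erythroid miRNAs as well as leukocyte ones. All 5 arms of miR-144, miR-451 and miR-486 had counts, and they summed to 92.7 to 206 CPM in XLHZ, 33.8 to 133 CPM in model and 44.6 to 160 CPM in normal libraries. Of the 4 tested, 1, miR-144-5p, passed as higher in XLHZ than in normal libraries (27.5 ± 11.5 and 7.22 ± 1.77 CPM, log2 fold change 1.89, adjusted p = 0.0136, edgeR), beside 1.50% of all miRNAs called, and none passed in the other comparisons. The other arm of that hairpin, miR-144-3p, measured 20.3 ± 5.93 CPM in XLHZ, 8.57 ± 4.03 CPM in model and 22.4 ± 26.8 CPM in normal libraries, with a log2 fold change of -0.18 in XLHZ against normal (adjusted p = 0.978, edgeR). miR-486 averaged 60.2 ± 29.6, 42.4 ± 18.2 and 44.3 ± 21.1 CPM in XLHZ, model and normal libraries, and miR-451-5p 27.8 ± 8.51, 16.4 ± 9.88 and 12.9 ± 6.18 CPM. The erythroid sum was highest in XLHZ library 1, where miR-142-3p and miR-142-5p were the lowest of the XLHZ group. There miR-150-5p (943 CPM) and miR-342-3p (276 CPM) were higher than in XLHZ libraries 2 and 3, and miR-223-3p (378 CPM) was not. The part of blood in these values was not tested.

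**Figure D5:**
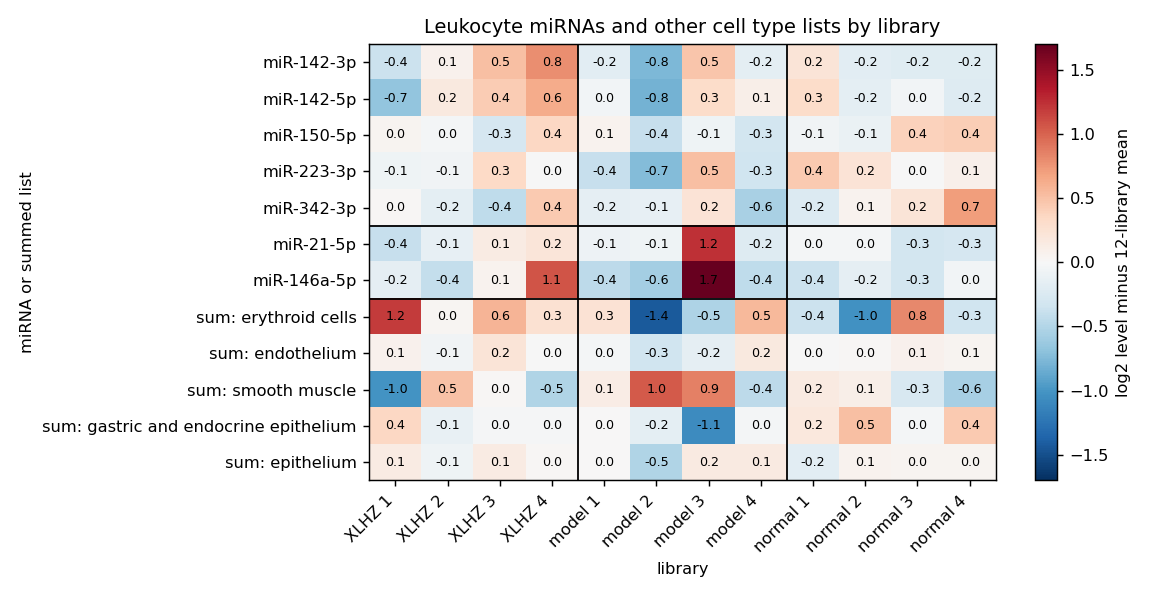
Log2 level minus the mean over the 12 libraries (colour and printed value) of the 5 abundant leukocyte arms, of miR-21-5p and miR-146a-5p, and of the summed levels of 5 cell type lists (rows) in each library (columns, XLHZ, model, normal). Model library 3 stands out for miR-21-5p and miR-146a-5p, and model library 2 for low miR-142 and miR-223-3p beside high smooth muscle miRNAs.

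A wider list of immune miRNAs held the arms of miR-155, which lymphocyte and macrophage activation induces, miR-146a and miR-146b, miR-147 and miR-511 of macrophages, the miR-181 family of lymphocyte development, and miR-21, miR-132 and miR-212. Several of them are also made outside leukocytes. Of its 21 arms in the files 17 were tested, and 0 passed in edgeR in each of the 3 comparisons, beside 0.248%, 0.249% and 1.50% of all miRNAs called in model against normal, XLHZ against model and XLHZ against normal. Their median log2 fold change was 0.016 in model against normal, -0.12 in XLHZ against model and -0.12 in XLHZ against normal, beside medians of -0.0072, 0.0057 and -0.0040 over all miRNAs tested. At an unadjusted p under 0.05 there was 1 in model against normal, miR-155-5p, at 312 ± 53.6 CPM in model and 441 ± 29.3 CPM in normal libraries (log2 fold change -0.50, adjusted p = 0.590). There were 0 in XLHZ against model and 1 in XLHZ against normal, miR-181b-5p (log2 fold change -0.48, adjusted p = 0.470). Over all miRNAs 7.20%, 4.23% and 8.73% had such a p in the 3 comparisons. With 17 arms, the counts of 1, 0 and 1 cannot be told apart from those shares. The 2 most abundant, miR-21-5p and miR-146a-5p, averaged 50046 ± 28382 and 2572 ± 2472 CPM in model and 35115 ± 3708 and 1612 ± 163 CPM in normal libraries. With the formula they averaged 38433 ± 6956 and 2240 ± 1146 CPM, and they did not pass in any comparison (adjusted p of 0.640 to 0.938, edgeR).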

How the data were processed

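RNA with an integrity number above 7.0 went into QIAseq miRNA libraries read on an Illumina machine, per the labels' protocols. The submitters' processing notes name Bowtie and DESeq and give no version. No source used here gives the build, the counting rule or whether molecular identifiers were collapsed. The authors deposited raw counts of mature miRNAs in 2 tables, 1 of normal and model libraries (639 miRNAs) and 1 of model and XLHZ libraries (632). CPM columns, also deposited, matched counts over column totals to within 5.0e-05 and served as a check. The model columns of both tables hold the same counts for 621 of 622 miRNAs, and the exception, miR-20b-3p, was not joined. Those in a single table (17 and 10, at most 3 counts) were set to 0 in the other. Libraries of a group differed by more than sampling noise (chi-square over degrees of freedom at least 172).

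edgeR 4.0.16 in R 4.3.3 fitted each pair of groups on those 8 libraries by quasi-likelihood (TMM scaling, filterByExpr at 10 counts). Benjamini-Hochberg adjustment ran over every miRNA tested, with a threshold of 0.05. SE is the absolute log2 fold change over the root of the F statistic. Levels are TMM-scaled CPM from the 12 libraries together. Ratios had 1 added to counts and exact permutation tests, and correlations used log2 (CPM + 1) in scipy 1.17.1. The fit was also run on simulated counts that gave every miRNA the same excess spread between libraries, and no result here rests on that run. Every row of the 4 hairpins is named, with the 3 miRNAs most alike to each dominant arm, and, from the erythroid and wider immune lists, the 2 most abundant arms and any that passed. miR-144-3p, miR-155-5p, miR-181b-5p and miR-375-3p were singled out after their values were seen. The members and lists were chosen with earlier results of these data known. The alternatives, among them DESeq2 1.42.0, are in the closing section.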

Additional observations from a re-analysis of the deposited data

Results flagged for a closer look

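Among 30 groups of 4 libraries checked for the leukocyte rows, their sum and the 2 ratios, 3 held a library far from the other 3, where chance gives about 1 in 20. Normal library 1 had 2949 CPM of miR-142-3p, against 2184 to 2241 CPM in the other normal libraries, and 3.10 CPM of miR-223-5p (31 counts), against 1.77 to 1.93 CPM. XLHZ library 3 had 502 CPM of miR-223-3p, against 378 to 395 CPM in the other XLHZ libraries. The same library held the single count of miR-150-3p, 0.0930 CPM, with 0 in the other XLHZ libraries. That group is not among the 30, since a lone count stands apart by construction. The log2 fold change of miR-142-3p in model against normal was 0.11 without normal library 1.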

How the results depend on the processing

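The 18 fold changes of leukocyte miRNAs were refitted under RLE, upper-quartile and library-total scaling, 2 other count filters, DESeq2, all 12 libraries in 1 fit, a smooth muscle covariate, a replicate block, without model libraries 2 and 3 and without each library in turn. miR-223-5p gave no value under the filter of 50 counts, and XLHZ against normal holds no model library to leave out. Of 315 values none was called, and 24 turned sign. In model against normal, the log2 fold change of miR-142-3p was 0.009638 with RLE factors and with DESeq2 and 0.03809 with upper-quartile factors, and that of miR-142-5p was 0.01250 with upper-quartile factors and 0.07255 without model libraries 2 and 3. In XLHZ against normal, miR-223-5p was 0.05383 with upper-quartile factors and 0.02376 on library totals. Leaving out 1 library gave, in model against normal, -0.2152 to 0.1543 for miR-142-3p, -0.1388 to 0.1363 for miR-142-5p and -0.4545 to 0.1487 for miR-223-5p. In XLHZ against model it gave -0.1556 to 0.4363 for miR-223-5p and -0.06542 to 0.2161 for miR-342-3p, and in XLHZ against normal -0.2213 to 0.1925 for miR-223-5p. With no turn of sign, it gave in model against normal -0.41 to -0.24 for miR-150-5p, -0.62 to -0.21 for miR-223-3p and -0.48 to -0.14 for miR-342-3p. In XLHZ against model it gave 0.20 to 0.61 for miR-142-3p, 0.083 to 0.46 for miR-142-5p, 0.073 to 0.27 for miR-150-5p and 0.069 to 0.48 for miR-223-3p. In XLHZ against normal it gave 0.18 to 0.56, 0.039 to 0.42, -0.29 to -0.047 and -0.26 to -0.066 for the same 4 arms and -0.44 to -0.040 for miR-342-3p. The log2 ratio of miR-142-3p to miR-142-5p ran over -0.05348 to 0.09375 in model against normal. That of miR-223-3p to miR-150-5p ran over -0.3026 to 0.06882 in model against normal, -0.1115 to 0.3008 in XLHZ against model and -0.2003 to 0.1558 in XLHZ against normal. As deviations from group means, miR-150-5p and miR-223-3p had an r of -0.1027. The cause of these turns was not tested. On library totals the median of all miRNAs was -0.12 in model against normal and 0.17 in XLHZ against model.

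Over all miRNAs, 1 was called in model against normal, against 2 with upper-quartile factors, library totals or a filter of 50 counts in 4 libraries, 3 with no filter, 7 with DESeq2, 4 in the fit of all 12 libraries and 1 to 4 without 1 library. In XLHZ against model 1 was called, 0 with the covariate or without model libraries 2 and 3, and 0 to 1 without 1 library. In XLHZ against normal 6 were called, 2 in the fit of all 12 libraries. With replicate number as a block, 1, 1 and 5 were called in these comparisons. Same-numbered libraries correlated at -0.4267 to 0.3934, -0.1697 to 0.5075 and -0.08141 to 0.3061, and 2, 2 and 1 of 4 correlated best with their own number. With 4 libraries per group this cannot decide whether the numbers pair the samples. Arms with at most 32 counts in a library limit what miR-223-5p and miR-342-5p can show.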
